A study of Mus musculus with 6 samples.

Results

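The gene set comprised 42 mouse genes of the ATP-dependent chromatin remodelers outside the NuRD complex, taken by symbol from a list of CHD, SWI/SNF, ISWI, INO80 and SRCAP family genes. They were 42 of the 48709 genes counted by RNA-Seq in G1E-ER4 cells, and 40 of them were among the 12722 genes with enough reads to be tested. Of the 42 genes, 18 encode an ATPase of the SNF2 type and 24 encode a subunit that works with one.

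G1E-ER4 is a line of immature mouse erythroblasts without a working Gata1 gene of its own, into which a GATA-1-ER construct was introduced, and tamoxifen switches the fusion protein on and lets the cells mature. Both groups were the same line and differed in the peptide, given at 10 μM for 2 h before tamoxifen and kept for another 28 h (30 h in all), with 3 libraries per group. The CHD4-APR group received an aggregation-prone stretch of CHD4, an ATPase of NuRD, joined to the cell-penetrating Tat peptide, and the CTRL group received an alanine peptide joined to Tat. The tamoxifen concentration is given as 100 nM in the culture protocol and as 100 μM in the series design. The comparison is thus between peptides in cells that were all treated with tamoxifen, in 1 stably transfected line with no untreated group, and the labels do not say whether the libraries came from separate cultures. The p-values then measure only the spread between these libraries, which may be technical.

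Remodelers use the energy of ATP to slide, evict or exchange nucleosomes. SWI/SNF complexes open chromatin at enhancers and promoters, ISWI complexes space nucleosomes in regular arrays, and INO80, SRCAP and EP400 complexes exchange histone variants. CHD proteins join chromodomains to the ATPase, and CHD4 belongs to the subfamily found in NuRD, with CHD3 and CHD5. In erythroid cells, the SWI/SNF ATPase encoded by Smarca4 is known to act at the globin loci with GATA-1, Smarca5 is required for red cell formation in mice, and human mutations of ATRX cause an alpha-thalassaemia syndrome.

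The libraries held between 41687482 and 49784177 counts. All 12 erythroid markers were above 1 CPM (the counts scaled to a common library size) in every library, and their summed normalized level was between 71900 and 77200 CPM in the CTRL libraries and between 61300 and 65500 CPM in the CHD4-APR libraries. Of markers of other cells, 5 of 5 fibroblast, 3 of 4 pluripotent, 4 of 7 granulocyte and macrophage and 3 of 5 lymphocyte genes had 0 counts throughout. The macrophage gene Csf1r was at 3.14 to 4.67 CPM, and no other gene of these lists was above 1 CPM in every library. The summed megakaryocyte level was 47.6 to 50.1 CPM in CTRL and 41.1 to 46.8 CPM in CHD4-APR libraries, with Ppbp at 0. The erythroid list did not move as one: the 4 globin genes, which make up most of its sum, and Klf1 were lower (Hbb-bs from a mean of 24800 to 19700 CPM), while Gata1, whose reads include the construct, and Tfrc were higher (1610 to 1860 and 895 to 1070 CPM) and the other 5 did not pass. With the length and GC correction described below, Hbb-bt (-0.18) and Hbb-bs (-0.19) stayed lower, Gata1 (0.35) stayed higher and Slc4a1 (0.12, edgeR FDR = 0.0333) passed as higher, while Hba-a1 (-0.061, FDR = 0.252), Hba-a2 (-0.033, FDR = 0.535), Klf1 (-0.0096, FDR = 0.886) and Tfrc (-0.032, FDR = 0.665) did not pass. Of the megakaryocyte genes, Gp9 was lower (log2 fold change -0.31, edgeR FDR = 0.00986) but did not pass with the correction (-0.12, FDR = 0.303). Itga2b, Pf4 and Gp1ba passed neither way, at -0.097, 0.44 and 0.090 uncorrected. The part of the globin genes and of the lower megakaryocyte sum in the results that follow was not tested. In RNA from a whole culture, fewer cells of a type and less RNA per cell cannot be told apart.

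Most of the tested remodeler genes were higher in CHD4-APR-treated cells. With edgeR's quasi-likelihood test and a false discovery rate (FDR) under 0.05 over all genes tested, 30 of the 40 genes differed (75.0%), against 38.3% of all genes. Of these, 23 were higher (57.5%, against 20.4% of all genes) and 7 were lower (17.5%, against 17.8% of all genes). The shifts were small: the median log2 fold change of the 40 genes was 0.21, against -0.012 over all genes tested, and their range ran from -0.28 to 0.83. Only Ino80d, Atrx and Chd9 passed the FDR and were at least 1.5-fold higher (3 of 40, or 7.50%, against 3.48% of all genes), and no member was lower by that factor. All 3 CHD4-APR libraries lay above all 3 CTRL libraries for 24 genes (60.0%, against 25.0% of all genes) and below them for 8 genes (20.0%, against 25.0% of all genes).

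**Figure D1:**
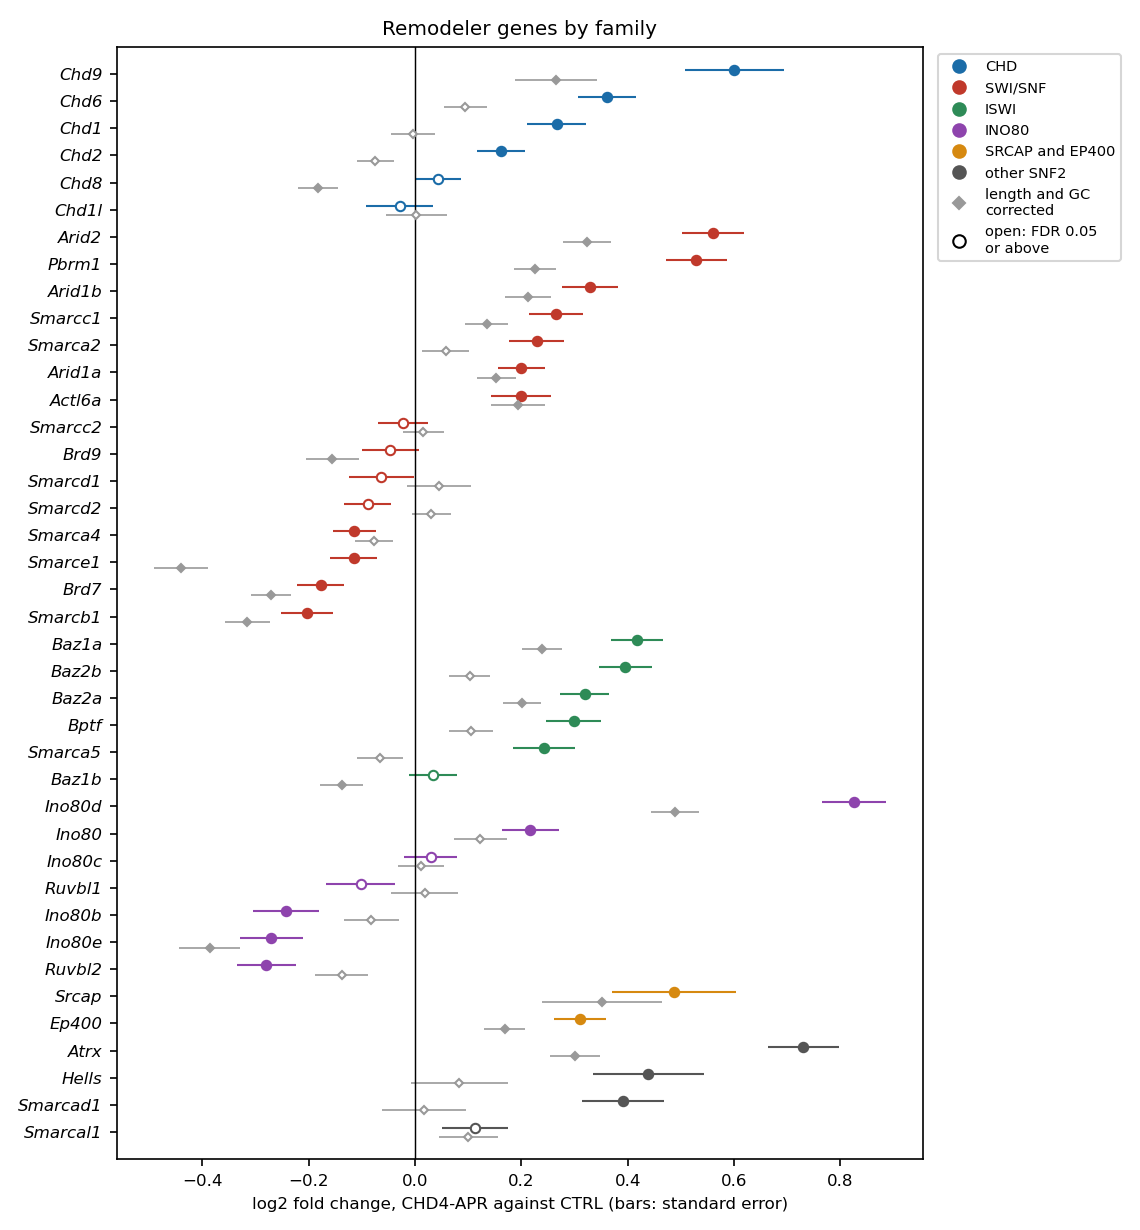
Log2 fold change of the 40 tested remodeler genes, CHD4-APR against CTRL, grouped by family on the vertical axis. Coloured circles are the values of the quasi-likelihood fit, grey diamonds those after correction for exonic length and GC content, bars are standard errors, and filled symbols passed an FDR of 0.05; Ino80d at 0.83 and Atrx at 0.73 lie farthest to the right, and Ruvbl2 at -0.28 lies farthest to the left of the circles.

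The direction of change went with the size of the transcript. Exonic length (the union of a gene's exons) had a median of 7881 bases in the 42 genes and of 3688 bases in all genes tested. Of the 17 tested members of 10000 bases or more, 15 were higher and 0 were lower, with a median log2 fold change of 0.33. Of all genes of that length, 60.9% were higher and 1.81% lower, with a median of 0.25. Of the 12 members between 6000 and 10000 bases, 7 were higher and 4 lower, with a median of 0.23, where 40.3% of all genes of that length were higher and 7.67% lower, with a median of 0.12. Of the 11 members under 6000 bases, 1 was higher and 3 were lower, with a median of -0.063, where 11.7% of all such genes were higher and 21.9% lower, with a median of -0.072.

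Over the 40 members, the log2 fold change correlated with the log2 exonic length (Pearson's r = 0.692, Spearman's rho = 0.706). It correlated inversely with GC content, taken from each gene's longest transcript (r = -0.529, rho = -0.513). These are descriptions across genes that share the 6 libraries, and over the 12677 tested genes with both values known the same correlations were r = 0.307 and rho = 0.407 for length and r = -0.399 and rho = -0.456 for GC content. For this reason the fold changes of the members and the counts of the gene lists below are given a second time after a correction in which each library's trend on exonic length and GC content was passed to the same test as an offset. With this correction 20 of the 40 members differed (50.0%, against 27.7% of all genes), of which 13 were higher (32.5%, against 11.7% of all genes) and 7 lower (17.5%, against 16.1% of all genes). The median log2 fold change of the members became 0.052, against -0.024 over all genes. Of the 23 genes higher without the correction 13 kept that call and 10 lost it, of the 7 lower genes 4 kept it and 3 lost it, and Chd8, Baz1b and Brd9 passed as lower only with the correction. No member passed in opposite directions. After the correction the members' log2 fold change still correlated with exonic length (r = 0.353, rho = 0.420, against 0.003 and 0.037 over all genes) but little with GC content (r = -0.061, rho = -0.114). The genomic span of a gene, which the correction did not use, correlated with the members' log2 fold change before (r = 0.726, rho = 0.744) and after it (r = 0.539, rho = 0.592), where the values over all genes were 0.289 and 0.384 before and 0.035 and 0.095 after. Whether the trend with length and GC content arose in the cells or in the libraries was not tested.

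**Figure D2:**
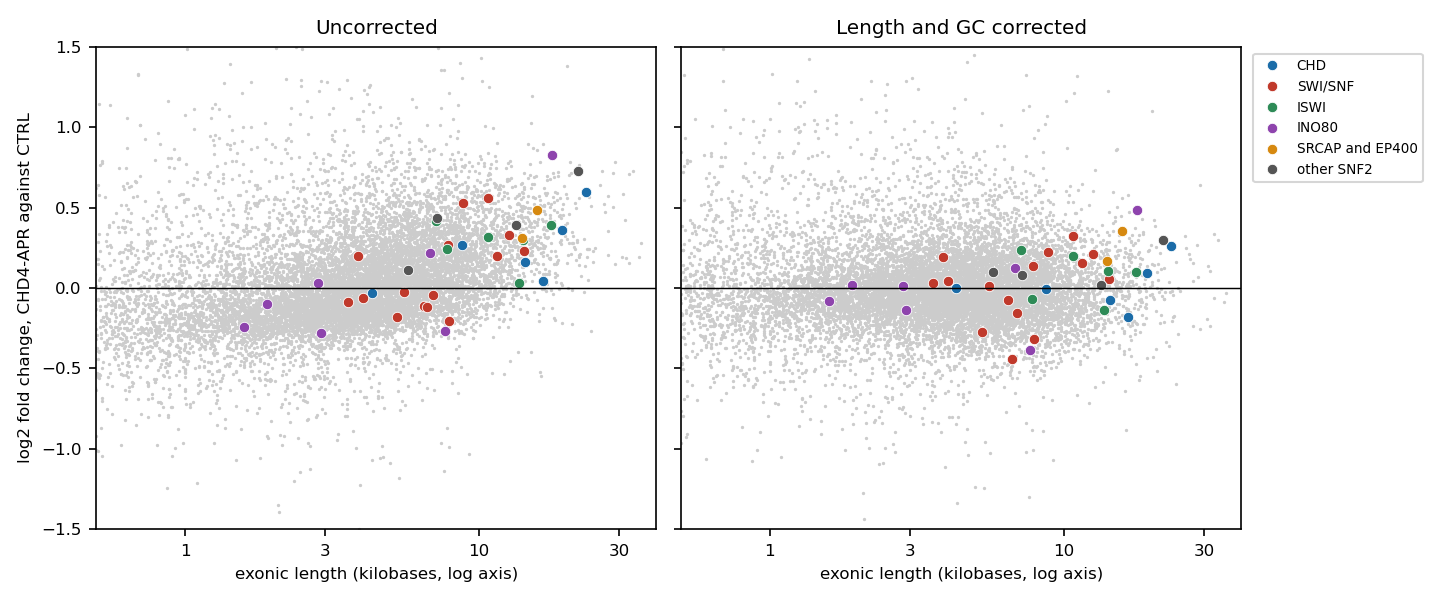
Log2 fold change, CHD4-APR against CTRL, against exonic length in kilobases on a log axis, uncorrected (left) and corrected for length and GC content (right), with remodeler genes coloured by family and other genes tested in grey; 778 of the 12722 genes lie outside the left window or have no length. Uncorrected, the 17 remodeler genes of 10000 bases or more all lie above 0, and after the correction the members lie on both sides of it.

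The members' levels also varied between libraries of a group. The median over members of the deviation from each gene's mean log2 level was -0.15 in CTRL 1, -0.059 in CTRL 2 and -0.064 in CTRL 3, and 0.084, 0.12 and 0.050 in CHD4-APR 1, 2 and 3. For all genes tested the median deviation of a library was between -0.0019 and 0.0065, but that of all genes of 10000 bases or more was -0.18, -0.096 and -0.097 in CTRL 1, 2 and 3 and 0.14, 0.13 and 0.10 in CHD4-APR 1, 2 and 3, in the same direction as the members. CTRL 1 was the lowest CTRL library for 20 of the 23 genes called higher, and CHD4-APR 3 the lowest of its group for 16 of the 23. The 42 genes together took 0.363% to 0.385% of the counts in the CTRL libraries and 0.422% to 0.433% in the CHD4-APR libraries, without overlap.

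**Figure D3:**
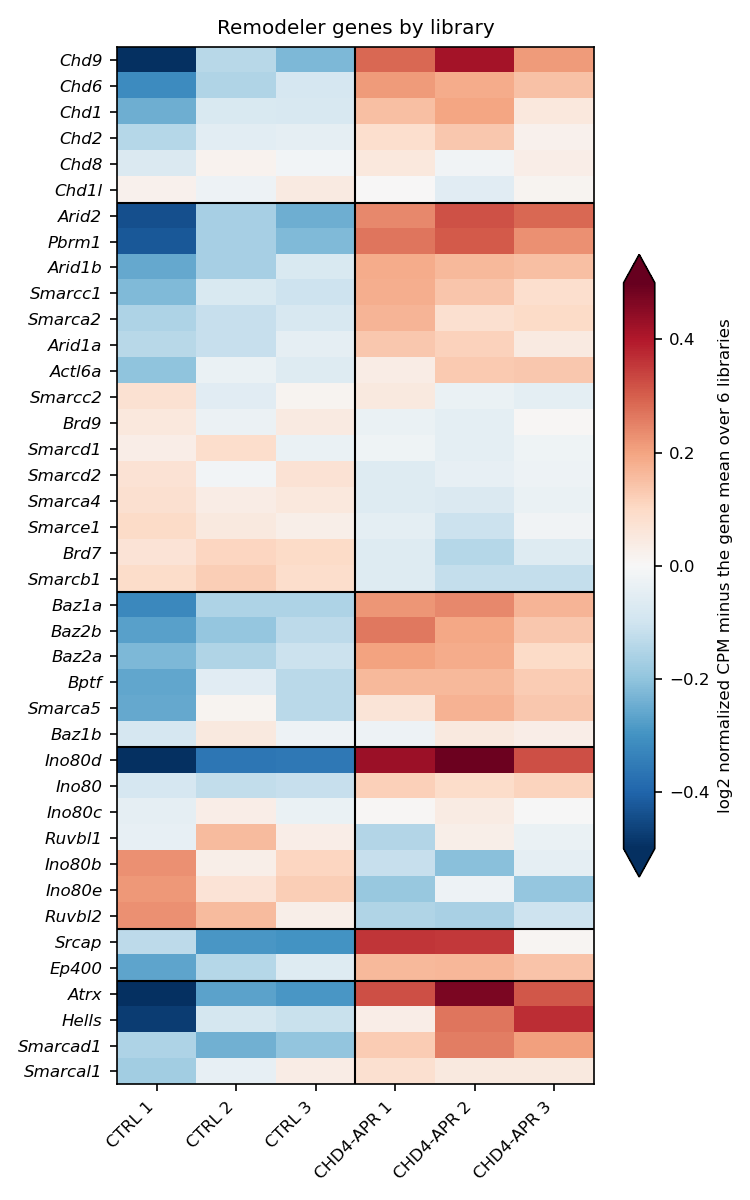
Heat map of the 40 tested remodeler genes (rows, by family and then by log2 fold change) in the 6 libraries (columns), showing log2 normalized CPM minus the gene's mean over the libraries, with colours saturated at 0.5 in either direction. Genes called higher turn from blue in the CTRL columns to red in the CHD4-APR columns, with the deepest blue mostly in CTRL 1.

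To show the start regions behind the largest shifts, promoters of the members are given from RefSeq on GRCm38.p6, 250 bases before to 50 bases after the annotated start, for which the table matched 34 of the 42 genes. Smarce1, Arid2, Chd2, Baz1a, Ino80c, Chd1, Ino80d and Chd7 had no entry. Among called genes with a single entry, the largest rises were those of Atrx (chrX:105929323-105929622, minus strand) and Pbrm1 (chr14:31018888-31019187, plus strand), and the largest falls those of Ruvbl2 (chr7:45434415-45434714, minus strand) and Ino80b (chr6:83125070-83125369, minus strand). The windows of Ruvbl2 and Ino80b lie wholly inside the genes as annotated by GENCODE (chr7:45421760-45438096 and chr6:83121765-83125431). For both, the RefSeq start used is thus not the outermost start of the gene as counted. In the lines that follow, read 5′ to 3′ on the gene's strand, capitals mark exact matches on either strand to the letters searched.
Atrx: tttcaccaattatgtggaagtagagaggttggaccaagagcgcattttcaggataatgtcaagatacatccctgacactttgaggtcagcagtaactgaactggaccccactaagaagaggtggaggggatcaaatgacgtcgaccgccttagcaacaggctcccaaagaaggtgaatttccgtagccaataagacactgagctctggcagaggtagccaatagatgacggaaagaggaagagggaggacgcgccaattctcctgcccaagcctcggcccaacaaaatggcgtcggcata
Pbrm1: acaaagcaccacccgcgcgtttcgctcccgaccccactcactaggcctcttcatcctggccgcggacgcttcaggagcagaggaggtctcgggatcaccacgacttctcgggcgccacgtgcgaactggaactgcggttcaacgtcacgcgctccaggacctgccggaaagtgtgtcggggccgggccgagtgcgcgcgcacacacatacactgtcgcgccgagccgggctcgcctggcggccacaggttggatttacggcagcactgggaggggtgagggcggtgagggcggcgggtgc
Ruvbl2: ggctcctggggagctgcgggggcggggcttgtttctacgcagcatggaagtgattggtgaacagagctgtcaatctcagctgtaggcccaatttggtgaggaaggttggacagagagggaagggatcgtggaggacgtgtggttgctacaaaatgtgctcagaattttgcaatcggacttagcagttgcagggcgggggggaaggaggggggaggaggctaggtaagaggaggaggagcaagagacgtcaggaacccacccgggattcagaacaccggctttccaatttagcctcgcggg
Ino80b: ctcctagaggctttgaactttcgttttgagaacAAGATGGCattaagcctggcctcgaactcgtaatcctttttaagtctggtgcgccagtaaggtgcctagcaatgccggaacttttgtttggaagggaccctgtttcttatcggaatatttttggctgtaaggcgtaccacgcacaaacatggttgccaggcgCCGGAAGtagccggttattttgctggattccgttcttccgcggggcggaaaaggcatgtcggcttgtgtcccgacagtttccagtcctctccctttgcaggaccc
The capitals in Ino80b are a YY1 match (AAGATGGC) and an ETS match (CCGGAAG), and the other promoters shown held no match to these letters. The GC content of the windows was 50.3% for Atrx, 68.0% for Pbrm1, 57.3% for Ruvbl2 and 51.3% for Ino80b, where the median was 64.7% over the members' promoters and 52.7% over all 32851 promoters in the table.

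The 5 sets of letters searched each occurred in 1 to 5 of the 34 members with an entry. Members were counted as genes (34, with 39 promoters) and the background as a percentage of promoters, so the bases differ. The GATA letters AGATAA were in the promoter of 1 of the 34 genes, Chd1l, and in 11.2% of all promoters. The YY1 letters AAGATGGC were in those of Bptf, Ino80b and Smarcd1 (3 genes) and in 2.75% of all promoters. NRF1 letters (GCATGCGC) were present in 4 genes, Smarca4, Smarca5, Smarcb1 and Smarcc1, and in 2.71% of all promoters. CRE letters (TGACGTCA) were present in Baz2b alone and in 1.79% of all promoters, and ETS letters (CCGGAAG) in 5 genes, Brd9, Chd8, Ino80b, Smarca2 and Smarcc1, and in 8.86% of all promoters. Genes with the same letters were called in different directions: of the 4 with NRF1 letters, Smarca5 and Smarcc1 were higher and Smarca4 and Smarcb1 lower. A match is a run of letters and not a bound site.

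In the CHD family, 4 of the 6 tested genes were higher in CHD4-APR-treated cells and 0 were lower, with a median log2 fold change of 0.21, which became -0.0001 with the length and GC correction. The median exonic length of the tested CHD genes was 15411.5 bases, and of all genes tested 20.4% were higher, or 60.9% of those of 10000 bases or more. Chd9, an ATPase of the subfamily that also holds CHD6, CHD7 and CHD8, spans chr8:90828352-91054516 on GRCm38. Its normalized level was 12.5, 16.7 and 15.7 CPM in CTRL 1, 2 and 3 and 22.4, 24.5 and 21.3 CPM in CHD4-APR 1, 2 and 3. The groups did not overlap, and CTRL 1 was the lowest library. Its log2 fold change was 0.60 ± 0.093 (SE, n = 3 per group, edgeR FDR = 1.19e-04), and 0.26 with the correction (FDR = 0.0167). It was the 1 CHD gene that was higher both ways.

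Chd6 was measured at 75.6, 84.8 and 88.7 CPM in the CTRL libraries and at 109, 107 and 104 CPM in the CHD4-APR libraries, without overlap. This was a log2 fold change of 0.36 ± 0.055 (edgeR FDR = 1.01e-04), and 0.095 with the correction (FDR = 0.0984). Chd1, which binds methylated histone H3 at active genes, had 69.2, 77.8 and 77.5 CPM in CTRL and 91.1, 94.0 and 85.1 CPM in CHD4-APR libraries, again without overlap. Its log2 fold change of 0.27 ± 0.055 (FDR = 0.00124) became -0.0031 with the correction (FDR = 0.966). The near relative Chd2 stood at 218, 232 and 233 CPM in CTRL and at 255, 264 and 244 CPM in CHD4-APR libraries. The lowest CHD4-APR library exceeded the highest CTRL library, and the log2 fold change was 0.16 ± 0.045 (edgeR FDR = 0.00972), with -0.074 after the correction (FDR = 0.127). Without CHD4-APR 2 the FDR of Chd2 was 0.0692. A processed transcript, 1810026B05Rik, shares 2628 of the 14300 exonic bases of Chd2 (18.4%) on the same strand, so that some of its reads may belong to either.

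Chd8, a regulator of beta-catenin targets, had 184, 196 and 192 CPM in CTRL and 201, 191 and 198 CPM in CHD4-APR libraries. The groups overlapped, and the log2 fold change was 0.044 ± 0.044 (edgeR FDR = 0.464), which became -0.18 with the correction (FDR = 0.00189). Chd1l, which is activated at sites of poly(ADP-ribose), had a log2 fold change of -0.029 (FDR = 0.752) and of 0.0029 with the correction (FDR = 0.977). Chd7, the gene mutated in CHARGE syndrome, had 0 counts in all 6 libraries, which allows a level of up to 0.0603 to 0.0720 CPM (3 counts per library, counting error only).

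In SWI/SNF, 7 of the 15 genes were higher and 4 lower, and the median log2 fold change of -0.023 changed sign with the correction (0.045). It also changed sign without CTRL 1 (0.011) and without CHD4-APR 3 (0.0029). Of all genes 20.4% were higher and 17.8% lower, and of all genes between 6000 and 10000 bases, where the family's median exonic length of 6949 bases lies, 40.3% and 7.67%. The 2 largest rises were in subunits of the PBAF form, Arid2 and Pbrm1. Arid2, a DNA-binding subunit, had 78.1, 94.2 and 89.4 CPM in CTRL and 125, 132 and 129 CPM in CHD4-APR libraries. Pbrm1, which carries a row of bromodomains, had 90.4, 108 and 104 CPM and 146, 150 and 142 CPM in the same order. Neither gene's groups overlapped, and CTRL 1 was the lowest library for both. The log2 fold change was 0.56 ± 0.059 for Arid2 (edgeR FDR = 3.45e-06) and 0.53 ± 0.058 for Pbrm1 (edgeR FDR = 4.90e-06), and with the correction 0.32 (FDR = 8.48e-05) and 0.23 (FDR = 5.75e-04).

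Brd7, the bromodomain subunit that joins ARID2 and PBRM1 in PBAF, went the other way, with 113, 116 and 115 CPM in CTRL and 103, 97.6 and 103 CPM in CHD4-APR libraries. Its groups did not overlap, and its log2 fold change was -0.18 ± 0.044 (edgeR FDR = 0.00456), or -0.27 with the correction (FDR = 9.42e-05). The bromodomain subunit of the non-canonical form, Brd9, had a log2 fold change of -0.046 (FDR = 0.537), and of -0.16 with the correction (FDR = 0.0303).

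The ARID subunits of the canonical form were both higher. Arid1b had 51.2, 54.5 and 57.9 CPM in CTRL and 69.4, 68.3 and 67.8 CPM in CHD4-APR libraries, with no overlap and a log2 fold change of 0.33 ± 0.052 (edgeR FDR = 1.43e-04). Arid1a, which was the more abundant per kilobase, had 248, 252 and 265 CPM and 300, 296 and 282 CPM, again with no overlap and a log2 fold change of 0.20 ± 0.044 (edgeR FDR = 0.00193). Both passed with the correction, at 0.21 (FDR = 0.00171) and 0.15 (FDR = 0.00483).

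The core subunits split. Smarcc1, a scaffold subunit, had 69.8, 77.1 and 75.7 CPM in CTRL and 92.2, 89.4 and 86.1 CPM in CHD4-APR libraries, without overlap, and a log2 fold change of 0.27 ± 0.051 (edgeR FDR = 6.45e-04; 0.13 and FDR = 0.0209 with the correction). Its paralog Smarcc2 had 189, 172 and 181 CPM in CTRL and 185, 175 and 173 CPM in CHD4-APR libraries, which overlapped, and a log2 fold change of -0.023 (FDR = 0.739; 0.016 and FDR = 0.813 with the correction). Smarcb1, the core subunit lost in rhabdoid tumours, had 56.1, 57.2 and 55.9 CPM in CTRL and 50.3, 48.4 and 48.4 CPM in CHD4-APR libraries. All CHD4-APR values lay below all CTRL values, with a log2 fold change of -0.20 ± 0.048 (edgeR FDR = 0.00343) and of -0.32 with the correction (FDR = 6.18e-05). The actin-related Actl6a rose by a log2 fold change of 0.20 (FDR = 0.0107), and by 0.19 with the correction (FDR = 0.00878). Of its 3886 exonic bases, 11.6% are shared with Mrpl47 on the opposite strand.

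Smarce1, a DNA-bending subunit, had 160, 155 and 153 CPM in CTRL and 145, 139 and 148 CPM in CHD4-APR libraries, without overlap. Its log2 fold change of -0.12 ± 0.044 was near the threshold (edgeR FDR = 0.0458), did not pass when any 1 of the 6 libraries was left out (FDR 0.0551 to 0.241), and was -0.44 with the correction (FDR = 2.30e-05). The GC content of its longest transcript, 39.1%, is among the lowest of the members. Smarcd1 had 24.4, 25.3 and 23.3 CPM in CTRL and 23.5, 23.0 and 23.5 CPM in CHD4-APR libraries, and Smarcd2, a paralog known for its part in granulocyte formation, had 120, 113 and 120 CPM and 109, 111 and 112 CPM. Smarcd1 overlapped between the groups and Smarcd2 did not, and neither passed the test, with log2 fold changes of -0.063 (FDR = 0.456) and -0.089 (FDR = 0.128), and 0.045 (FDR = 0.634) and 0.031 (FDR = 0.587) with the correction.

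Of the SWI/SNF ATPases, Smarca4 (BRG1) was lower and Smarca2 (BRM) higher. Smarca4 had 208, 202 and 204 CPM in CTRL and 188, 187 and 192 CPM in CHD4-APR libraries, without overlap. Its log2 fold change was -0.11 ± 0.041 (edgeR FDR = 0.0367), and -0.077 with the correction (FDR = 0.119). When the correction took length from the longest transcript, it was -0.15 and passed (FDR = 0.00487). The uncorrected call held without CTRL 2 but not without any other library (FDR 0.0507 to 0.158). Smarca2 had 43.7, 44.9 and 46.0 CPM and 54.7, 51.3 and 51.9 CPM, also without overlap, with a log2 fold change of 0.23 ± 0.051 (edgeR FDR = 0.00222) and of 0.058 with the correction (FDR = 0.372).

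**Figure D4:**
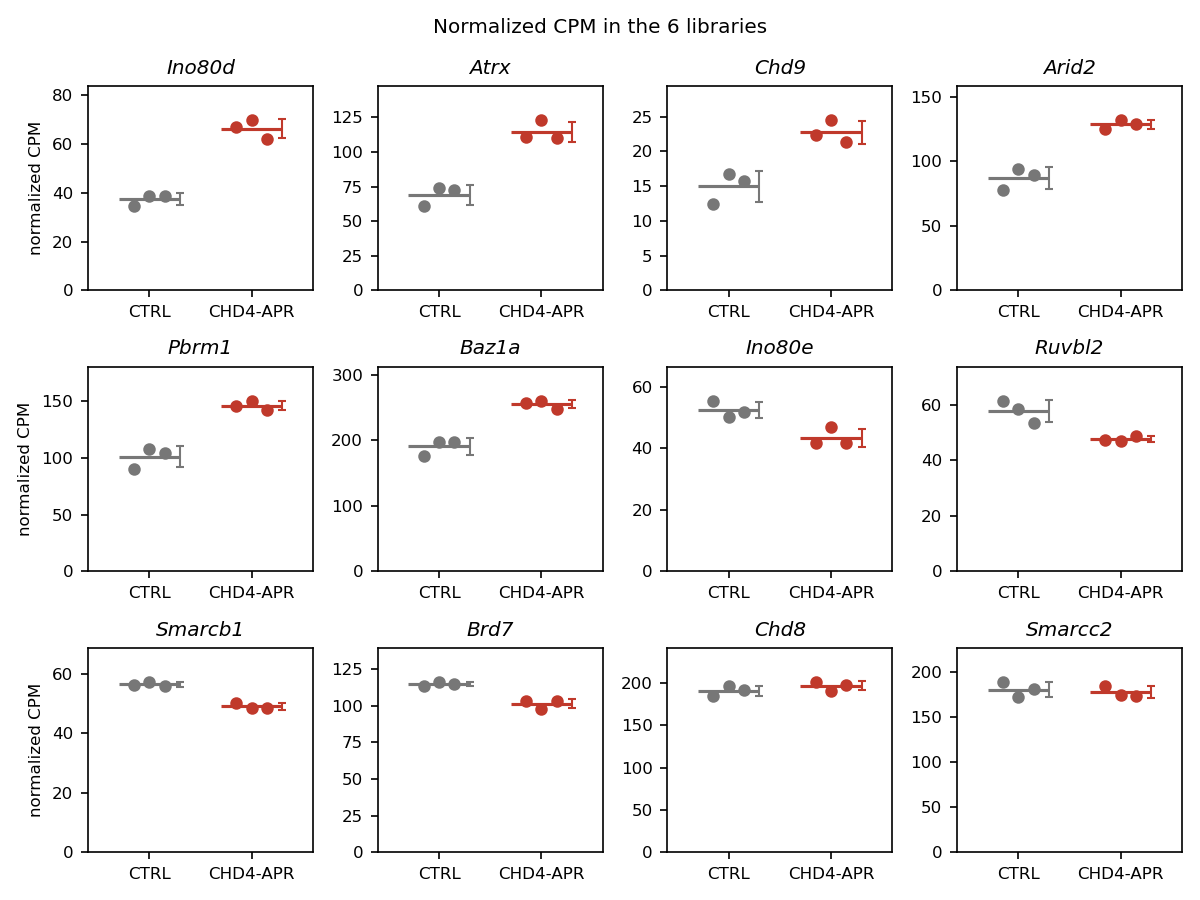
Normalized CPM of 12 remodeler genes in the CTRL (grey) and CHD4-APR (red) libraries, 1 point per library, with the group mean as a line and the SD as a bar; the vertical axes start at 0. Ino80d, Atrx, Chd9, Arid2, Pbrm1 and Baz1a lie higher in all CHD4-APR libraries, Ino80e, Ruvbl2, Smarcb1 and Brd7 lie lower in all of them, and the groups of Chd8 and Smarcc2 overlap.

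In the ISWI group, 5 of the 6 tested genes were higher and 0 lower, with a median log2 fold change of 0.31 (0.10 with the correction). Their median exonic length was 12198.5 bases, a length class in which 60.9% of all genes were higher, against 20.4% of all genes of any length. The ATPase Smarca5 had 112, 135 and 122 CPM in CTRL and 140, 151 and 147 CPM in CHD4-APR libraries. Its groups did not overlap, and its log2 fold change was 0.24 ± 0.059 (edgeR FDR = 0.00366), which became -0.067 with the correction (FDR = 0.285). The other ISWI ATPase, Smarca1, had 0 counts in all 6 libraries, with the same limit as Chd7.

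The large partners of the ISWI ATPase carry a bromodomain and decide which complex forms. Baz1a, the partner in ACF, had 176, 198 and 198 CPM in CTRL and 257, 260 and 248 CPM in CHD4-APR libraries. Baz2a, the partner in the complex that silences ribosomal RNA genes, had 190, 200 and 206 CPM and 255, 252 and 237 CPM. Baz2b had 87.6, 92.5 and 96.6 CPM and 127, 121 and 116 CPM. None of these groups overlapped, and CTRL 1 was the lowest library for each. Log2 fold changes were 0.42 ± 0.049 for Baz1a (edgeR FDR = 1.06e-05), 0.32 ± 0.046 for Baz2a (edgeR FDR = 6.08e-05) and 0.40 ± 0.050 for Baz2b (edgeR FDR = 1.87e-05). With the correction Baz1a (0.24, FDR = 2.09e-04) and Baz2a (0.20, FDR = 6.10e-04) passed and Baz2b did not (0.10, FDR = 0.0613). Bptf, the reader subunit of NURF, had a log2 fold change of 0.30 (FDR = 2.80e-04), and 0.11 with the correction (FDR = 0.0703). Baz1b, the partner in WICH, had 0.034 (FDR = 0.598), and -0.14 with the correction (FDR = 0.0181).

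In the uncorrected fit, INO80 held both the largest rise and the 3 largest falls of the set: 2 of its 7 genes were higher and 3 lower, and the median log2 fold change of -0.10 changed sign with the correction (0.012). Without CTRL 2 this median was -0.046, and without CHD4-APR 1 it was -0.052. Of all genes 20.4% were higher and 17.8% lower, and of all genes under 6000 bases, where the family's median exonic length of 2902 bases lies, 11.7% and 21.9%. Ino80d, a subunit of the complex, spans chr1:62958418-63114667 on GRCm38 and has an exonic length of 17.7 kilobases. It had 34.5, 38.7 and 38.8 CPM in CTRL and 66.8, 69.8 and 62.1 CPM in CHD4-APR libraries. The groups lay far apart relative to their spread, and the log2 fold change was 0.83 ± 0.060 (edgeR FDR = 3.88e-07), or 0.49 with the correction (FDR = 4.47e-06). The ATPase Ino80 had 31.3, 30.5 and 30.6 CPM and 36.0, 35.4 and 35.8 CPM, without overlap, and its log2 fold change was 0.22 ± 0.054 (edgeR FDR = 0.00457; 0.12 and FDR = 0.0768 with the correction).

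The genes lower in this family were Ino80e, Ino80b and Ruvbl2. Ino80e had 55.4, 50.1 and 52.0 CPM in CTRL and 41.9, 46.9 and 41.7 CPM in CHD4-APR libraries. Ino80b had 50.6, 44.1 and 46.5 CPM and 39.9, 37.4 and 41.9 CPM. Ruvbl2, an AAA+ ATPase shared with the SRCAP and EP400 complexes, had 61.4, 58.5 and 53.6 CPM and 47.3, 46.9 and 48.8 CPM. The groups did not overlap for any of them. Log2 fold changes were -0.27 ± 0.059 for Ino80e (edgeR FDR = 0.00190), -0.24 ± 0.062 for Ino80b (edgeR FDR = 0.00531) and -0.28 ± 0.056 for Ruvbl2 (edgeR FDR = 9.26e-04). With the correction only Ino80e passed (-0.39, FDR = 1.46e-04), while Ino80b was at -0.082 (FDR = 0.273) and Ruvbl2 at -0.14 (FDR = 0.0512). Ino80e shares 14.4% of its exonic bases with Doc2a and Ruvbl2 shares 10.7% with Gys1, in both cases on the opposite strand. Ruvbl1, the partner of Ruvbl2 in a shared ring, had 36.7, 42.2 and 38.7 CPM in CTRL and 34.2, 38.6 and 36.9 CPM in CHD4-APR libraries, which overlapped (log2 fold change -0.10, edgeR FDR = 0.232). The subunit gene Ino80c had a log2 fold change of 0.030 (FDR = 0.680), and Ruvbl1 and Ino80c were at 0.018 and 0.012 with the correction (FDR = 0.870 and 0.878).

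Srcap and Ep400, ATPases of complexes that place the histone variant H2A.Z, were both higher. Ep400, at 272, 296 and 312 CPM in CTRL and 365, 366 and 360 CPM in CHD4-APR libraries, was the member with the most reads and had no overlap between groups. The log2 fold change was 0.31 ± 0.049 (edgeR FDR = 1.34e-04), and 0.17 with the correction (FDR = 0.00385). Srcap had the fewest reads of the tested members, at 4.91, 4.39 and 4.37 CPM and 6.89, 6.88 and 5.42 CPM. The groups did not overlap, though CHD4-APR 3 lay nearer to the CTRL libraries than the other CHD4-APR libraries did. The log2 fold change was 0.49 ± 0.12 (edgeR FDR = 0.00370), and 0.35 with the correction (FDR = 0.0283). Another gene model, Gm42715, shares 9738 of the 15783 exonic bases of Srcap (61.7%) on the same strand, and which of the shared reads were counted for which gene is not given in the sources used here.

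Of the other SNF2 genes, 3 of 4 were higher, with a median log2 fold change of 0.42 (0.092 with the correction). The median exonic length of these genes was 10263.5 bases, and 60.9% of all genes of 10000 bases or more were higher, against 20.4% of all genes. Atrx, a heterochromatin remodeler that deposits a histone H3 variant at repeats, spans chrX:105797615-105929403 on GRCm38. It had 60.8, 73.8 and 72.6 CPM in CTRL and 111, 123 and 110 CPM in CHD4-APR libraries. The groups did not overlap, with CTRL 1 the lowest library. The log2 fold change was 0.73 ± 0.066 (edgeR FDR = 1.17e-06), and 0.30 with the correction (FDR = 2.06e-04). Its exonic sequence is 21.8 kilobases long, and the GC content of its longest transcript is 39.5%.

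Hells, which helps DNA methylation through nucleosomes, had 9.63, 12.6 and 12.4 CPM in CTRL and 13.7, 16.1 and 17.3 CPM in CHD4-APR libraries. Smarcad1, which keeps heterochromatin through replication, had 10.6, 10.0 and 10.3 CPM and 12.9, 14.1 and 13.6 CPM. Neither overlapped between groups, though for Hells the spread within each group was wide. The log2 fold changes of 0.44 ± 0.11 (edgeR FDR = 0.00352) and 0.39 ± 0.077 (edgeR FDR = 8.18e-04) became 0.084 (FDR = 0.547) and 0.017 (FDR = 0.905) with the correction. Smarcal1, an annealing helicase at stalled forks, had a log2 fold change of 0.11 (FDR = 0.165), which was 0.057 without CTRL 1, although its libraries did not overlap, and of 0.10 with the correction (FDR = 0.206).

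By role, 12 of the 16 tested ATPases were higher and 1, Smarca4, was lower, with a median log2 fold change of 0.25. Of the 24 subunits 11 were higher and 6 lower, with a median of 0.032, which was 0.012 without CTRL 1 and 0.061 without CTRL 2. The ATPases had a median exonic length of 13646.5 bases and the subunits of 7401.5 bases. Of all genes 20.4% were higher and 17.8% lower, while of all genes of 10000 bases or more 60.9% were higher, and of those between 6000 and 10000 bases 40.3%. With the length and GC correction, 4 ATPases were higher and 1 lower, with a median of 0.071, and 9 subunits were higher and 6 lower, with a median of 0.038, where 11.7% of all genes were higher and 16.1% lower. In the corrected fit, 197 of all 937 genes of 10000 bases or more were higher and 230 lower. Of the 2257 between 6000 and 10000 bases, 401 were higher and 502 lower. The ATPases that were higher both ways were Chd9, Srcap, Ep400 and Atrx.

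Per kilobase of exon, the levels of the members in CTRL cells (mean CPM per kilobase ± SD, n = 3) ran from 32.8 ± 1.21 for Smarcd2 to 0.289 ± 0.0193 for Srcap, beside the 2 genes at 0. Srcap shares 61.7% of its exonic bases with Gm42715, so its level may be understated if shared reads were set aside. Smarcc2 at 32.5 ± 1.57 and Smarca4 at 31.6 ± 0.519 followed Smarcd2, and these 3 did not differ beyond their spread. The ATPase Smarca5 was at 15.8 ± 1.49, Ep400 at 21.0 ± 1.47, Chd2 at 15.9 ± 0.591, Chd8 at 11.5 ± 0.378 and Ino80 at 4.52 ± 0.0612 CPM per kilobase. The genes with the largest rises were not among the most abundant: Atrx was at 3.17 ± 0.329, Ino80d at 2.11 ± 0.137 and Chd9 at 0.647 ± 0.0958 CPM per kilobase. In the CHD4-APR group these 3 stood at 5.27, 3.74 and 0.982 CPM per kilobase.

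Paralogs or paired ATPases were compared as the share of the first gene in the summed length-scaled level, in 10 pairs, without the length and GC correction. In 2 of the pairs 1 gene had 0 counts (Smarca1 beside Smarca5, and Chd7 beside Chd8), so 8 pairs were tested. The share did not overlap between groups in 6 of the 8. An exact two-sided permutation test with 3 against 3 libraries cannot go below p = 0.1, which all 6 reached (adjusted p = 0.133 over the 8 pairs), so none could pass.

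Smarca4 made up 91.3%, 90.8% and 90.7% of Smarca4 plus Smarca2 in CTRL and 88.3%, 88.9% and 89.1% in CHD4-APR libraries, a difference of -2.16 percentage points. Smarcc1 made up 20.8%, 24.2% and 22.9% of Smarcc1 plus Smarcc2 in CTRL and 26.1%, 26.5% and 26.1% in CHD4-APR libraries, a difference of 3.66 points. In both pairs every CHD4-APR library lay on the same side of every CTRL library. Mean shares of Arid1a beside Arid1b were 83.7% ± 0.406 and 82.4% ± 0.338 (SD, n = 3), those of Chd1 beside Chd2 35.0% ± 0.659 and 36.7% ± 0.319, and those of Baz2a beside Baz2b 78.0% ± 0.144 and 77.0% ± 0.258. With the correction the fold changes given above come closer together for Smarca4 and Smarca2 and for Smarcc1 and Smarcc2, and for Baz2a (0.20) and Baz2b (0.10) their order is the reverse of the uncorrected one. For Ruvbl1 beside Ruvbl2 the shares were 47.7%, 52.4% and 52.4% in CTRL and 52.5%, 55.7% and 53.6% in CHD4-APR libraries, so that the nearest libraries of the groups almost met, and the difference of 3.06 points was 1.50 points without CTRL 1. Overlap was seen for Smarcd1 beside Smarcd2, at 15.6% ± 0.988 and 15.8% ± 0.256 (exact permutation p = 0.8), and for Srcap beside Ep400, at 1.37% ± 0.185 and 1.53% ± 0.187 (exact permutation p = 0.2, adjusted p = 0.229). The Srcap share also depends on how reads shared with Gm42715 were counted.

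**Figure D5:**
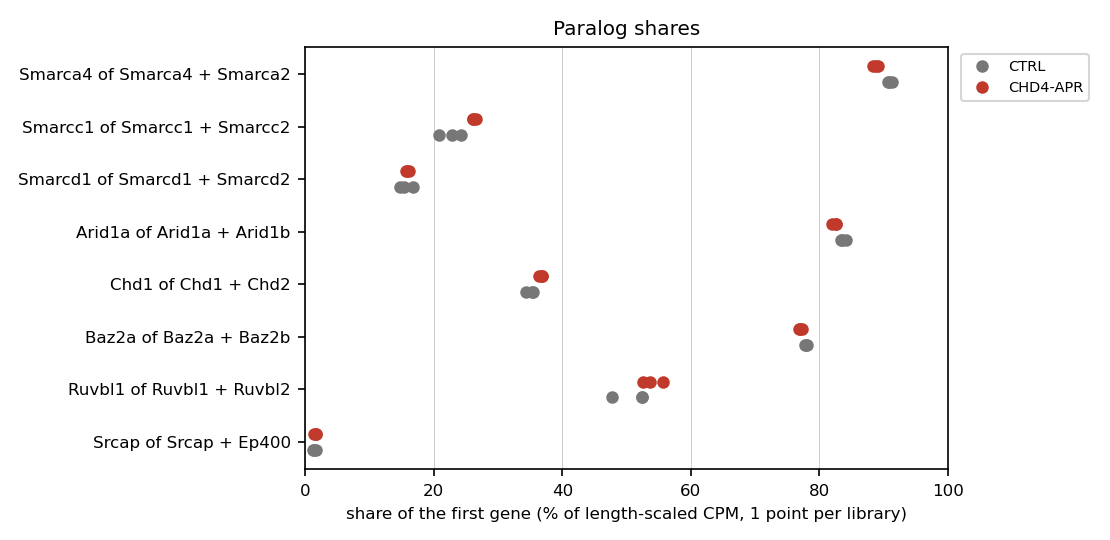
Share of the first gene in each of 8 paralog pairs, in percent of the summed CPM per kilobase (horizontal axis from 0 to 100), with 1 point per CTRL (grey) or CHD4-APR (red) library. The groups lie close to each other in every pair, and the largest differences of the means are 3.66 points for Smarcc1 and -2.16 points for Smarca4 among the SWI/SNF pairs and 3.06 points for Ruvbl1.

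The rest of the same machinery was described from lists of 54 further remodeler genes outside NuRD and ChAHP, the complex of CHD4 with ADNP and HP1 proteins. Of the 52 tested, 18 were higher and 13 lower, with a median log2 fold change of 0.077, where 20.4% of all genes were higher and 17.8% lower. With the correction 9 were higher and 12 lower, with a median of -0.033, where 11.7% of all genes were higher and 16.1% lower.

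The shares of all genes to set beside each list are 20.4% higher and 17.8% lower, or 11.7% and 16.1% with the correction. Other SNF2-like ATPases had 6 of 11 higher and 0 lower, with a median of 0.26, led by Btaf1 at 0.58 and Shprh at 0.56. Those higher, except Hltf, have 10000 exonic bases or more, a length at which 60.9% of all genes were higher. With the correction 3 were higher and 0 lower, with a median of 0.028 (Btaf1 0.29, Shprh 0.19, both passing). Other SRCAP and TIP60-EP400 subunits had 6 of 15 higher, led by Mbtd1 at 0.56 and Epc2 at 0.50, and 4 lower, led by Dmap1 at -0.31 and Znhit1 at -0.29. With the correction 5 were higher and 5 lower, and these 4 genes passed in the same direction (0.16, 0.33, -0.18 and -0.13). Morf4l1 of this list passed in opposite directions, at 0.21 uncorrected (edgeR FDR = 7.17e-04) and -0.12 corrected (FDR = 0.028). Other SWI/SNF subunits had 3 of 14 higher, led by Ss18l1 at 0.29 and Bicral at 0.23, and 5 lower, led by Dpf1 at -0.26 and Bcl7c at -0.24. With the correction 0 were higher and 5 lower, and Ss18l1 (0.27, FDR = 0.0584) and Bicral (0.16, FDR = 0.0608) did not pass. Among other INO80 subunits Yy1 was the 1 of 7 that was higher, at 0.41, and 3 were lower, led by Tfpt at -0.24 and Uchl5 at -0.17. With the correction 1 was higher (Yy1, 0.36) and 2 lower, with Uchl5 at -0.38 and Tfpt not passing (-0.068, FDR = 0.405). Other ISWI partners had 2 of 5 higher, Cecr2 at 0.31 and Rsf1 at 0.30, and 1 lower, Pole3 at -0.13, but 0 passed in either direction with the correction (0.039, -0.10 and -0.069).

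In the complexes of CHD4 itself, Chd4 had a log2 fold change of 0.054 (edgeR FDR = 0.322), and of 0.013 with the correction (FDR = 0.834). Of 14 tested NuRD subunits 2 were higher, Gatad2b at 0.21 and Rbbp4 at 0.19, and 3 were lower, Mbd3 at -0.27, Cdk2ap1 at -0.20 and Gatad2a at -0.16, where 20.4% of all genes were higher and 17.8% lower, with a median log2 fold change of 0.049. Of these 5 genes Gatad2a passed with the correction (-0.12, FDR = 0.0146), and Gatad2b, Rbbp4, Mbd3 and Cdk2ap1 did not (-0.031, -0.027, -0.12 and -0.050). Of 5 ADNP and HP1 genes listed for ChAHP, 4 were higher and 0 lower, led by Adnp at 0.51 (a mean of 1.76 CPM in CTRL) and Adnp2 at 0.41, with a median of 0.29. With the correction, where 11.7% of all genes were higher and 16.1% lower, 3 NuRD subunits were higher and 2 lower, with a median of -0.026, and 3 of the ChAHP genes were higher and 1 lower, with a median of 0.17, among them Adnp at 0.44 (FDR = 0.0498) and Adnp2 at 0.39 (FDR = 5.24e-05). No test of the remodeler genes against these lists was made.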

How the data were processed

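Poly(A) RNA of 3 CTRL and 3 CHD4-APR libraries was sequenced. Per the labels and the study's methods, the authors trimmed reads with Cutadapt, aligned them with STAR 2.7.10a to GRCm38 and deposited raw counts per Ensembl gene from featureCounts. Whether counting used strand or set aside shared reads is not given in the sources used here, and 21 of the 42 members share exonic bases with another gene, 5 of them over 10%. A further 2 columns match no sample and were not used. GENCODE release M21 (GRCm38) named 48349 of 48709 identifiers.

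Counts passed edgeR's filterByExpr, were scaled by TMM, and went into edgeR's quasi-likelihood test of the 2 groups with no block for replicate number (edgeR 4.0.16, R 4.3.3) and Benjamini-Hochberg adjustment over 12722 genes. SE is the log2 fold change divided by the square root of F. Library trends on exonic length and GC content (mgcv 1.9.3) were passed as offsets in the corrected fit, and 45 tested genes lacked these values. GC content was that of a gene's longest transcript, while length was the exon union unless stated. Scripts were tested on simulated data. Replicate libraries differed by more than counting noise (chi-square per degree of freedom 4.64 to 15.7). Library totals were 41687482 to 49784177 counts, and the common biological coefficient of variation was 0.0518.

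Alternatives were DESeq2 1.42.0, limma-voom (limma 3.58.1), other scalings and filters, protein-coding genes only, a replicate block, an FDR of 0.01 and leaving out each library. All 42 members are named, and values per library are given for the 3 largest called changes in each direction in a family and for paralog pairs. From each list the counts are given, with up to 2 called genes in each direction, and Chd4 and, after its values were seen, Gatad2a from NuRD. Members and lists were chosen with earlier results of these data known.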

Additional observations from a re-analysis of the deposited data

How the results depend on the processing

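DESeq2, limma-voom, RLE and upper quartile scaling, a minimum of 10 counts in every library, protein-coding genes only and the replicate block each gave 30 members called, 23 higher and 7 lower. Without a filter on low counts 28 members were called, and at an FDR of 0.01, 27 (22 higher and 5 lower), with Actl6a, Smarca4 and Smarce1 no longer called. Leaving out 1 library gave 27 to 30 members (22 to 23 higher) and 3703 to 4928 of all genes. Smarca4 and Smarce1 lost their call without the filter (FDR 0.0823 and 0.0897). At an FDR of 0.05, 22 of the 23 genes higher kept their call in every fit without the length and GC correction, and 5 of the 7 lower. At the same FDR 12 higher genes kept it in every fit, corrected ones included (Chd9, Actl6a, Arid1a, Arid1b, Arid2, Pbrm1, Baz1a, Baz2a, Ino80d, Srcap, Ep400 and Atrx), and 3 lower (Smarcb1, Brd7 and Ino80e).

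The length and GC correction moved the results. In the order correction, correction with the replicate block, and correction by the longest transcript (the last chosen after seeing the data), members higher were 13, 15 and 13, and the members' median log2 fold change was 0.052, 0.052 and 0.045. With the longest transcript 3167 of all genes were called. Signs changed, in that order, for the medians of CHD (-0.0001, -0.0006 and -0.035), SWI/SNF (0.045, 0.047 and 0.046) and INO80 (0.012, 0.012 and 0.0078), and for Chd1 (-0.0031, -0.0030 and -0.095), Chd2 (-0.074, -0.075 and -0.10), Chd8 (-0.18 each time), Chd1l (0.0029, 0.0019 and 0.024), Smarcd1 (0.045, 0.047 and 0.046), Smarcd2 (0.031, 0.031 and 0.041), Smarca5 (-0.067, -0.065 and -0.13), Baz1b (-0.14, -0.14 and -0.10) and Ruvbl1 (0.018, 0.021 and 0.015). Smarcc2 changed sign in the first 2 (0.016 each). With the longest transcript Chd2 (FDR = 0.0318) and Smarca5 (FDR = 0.0411) passed as lower, and Smarca4 kept its lower call (-0.15, FDR = 0.00487). In that fit 22 members were called, 13 higher and 9 lower. The cause was not tested.

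Leaving out 1 library also changed the sign of the SWI/SNF median (-0.039 to 0.011), of Smarcc2 (-0.060 to 0.011) and of the difference in the Smarcd1 share (-0.185 to 0.778 points), and moved the INO80 median (-0.148 to -0.046), the subunits' median (0.012 to 0.061), the difference in the Ruvbl1 share (1.50 to 3.85 points) and the log2 fold changes of genes that were not called, among them Ruvbl1 (-0.148 to -0.046), Smarcd1 (-0.093 to -0.035), Baz1b (0.0014 to 0.068) and Smarcal1 (0.057 to 0.16).

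Same-numbered libraries did not deviate together (r = 0.070, 0.055 and -0.035), so the numbers were not taken as pairs. With the replicate block 30 members and 5214 of all genes were called, and with block and correction together 23 members, 15 higher and 8 lower. Precision for a single gene rests on 3 libraries per group, and Srcap, Hells, Smarcad1 and Chd9 have the fewest reads and the widest errors.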
